A study of Mus musculus with 50 samples.

Results

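The ADAM (a disintegrin and metalloprotease) genes were followed in tissue punched from the hypothalamic paraventricular nucleus (PVN) of 2 mouse strains, before and after an acute stress. Their members were all cDNA clones on the array whose printed name was the full name of an ADAM gene, with the ADAMTS genes left out. This gave 19 clones of 12 genes among 22824 clones. Adam10 had 4 clones, at spots 7838, 16281, 21310 and 24156. The 15 other clones belonged to 11 genes, with 3 clones of Adam23, 2 each of Adam17 and Adam22, and 1 each of Adam1a, Adam3, Adam8, Adam9, Adam12, Adam15, Adam33 and Adamdec1. The printed names gave the gene but no sequence accession, so clones of a gene are told apart here by spot number.

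Male C57BL/6J and DBA/2J mice, 3 to 5 months old and single housed, were either left non-stressed or forced to swim for 5 min and killed 4 h or 8 h later, with all animals killed at the same hour of the day. RNA of the punched PVN was combined into 1 pool of 6 animals for each of the 6 conditions and amplified in 2 rounds. Two-colour arrays then compared pools directly: DBA/2J with C57BL/6J, both non-stressed, and the 4 h and the 8 h pool of each strain with the non-stressed pool of the same strain. Each of these 5 comparisons was hybridised 10 times, with 5 arrays in each dye orientation. The 10 arrays of a comparison repeat 1 pair of pools. Their spread, and every standard error (SE) and p-value below, comes from labelling and hybridising the same 2 pools again, and animals are not replicated.

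ADAM proteins are membrane-anchored relatives of snake venom metalloproteases. The active members cut the outer parts of other membrane proteins free of the cell, a step called ectodomain shedding. ADAM10 is the main alpha-secretase of neurons, cutting the amyloid precursor protein within the amyloid beta stretch, and it also cuts Notch receptors, N-cadherin and the prion protein. ADAM17, the tumour necrosis factor alpha converting enzyme, sheds many cytokines, growth factors and their receptors. ADAM22 and ADAM23 have lost the catalytic site and act at synapses and along axons as receptors of the secreted protein LGI1.

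The 4 clones of Adam10 were not equally bright. A spot was counted as bright when its mean intensity over both dyes exceeded the 95th percentile of the 1170 empty spots of the same array. Clone 7838 was bright on all 50 arrays, with background-subtracted intensities in Cy5 from 881 to 7590 units around a median of 2600. Clone 16281 was bright on 47 arrays and clone 24156 on 40, and both missed arrays mainly at 8 h in DBA/2J, where 7 and 1 of 10 arrays passed. Clone 21310 was bright only on the 10 arrays of C57BL/6J at 4 h, and its median Cy5 intensity was 75.1 units. The 15 clones of other ADAM genes were bright on 0 to 16 of 50 arrays. Adam9 and Adam33 passed on none, and most of the arrays that passed for the others came from C57BL/6J at 4 h.

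**Figure D1:**
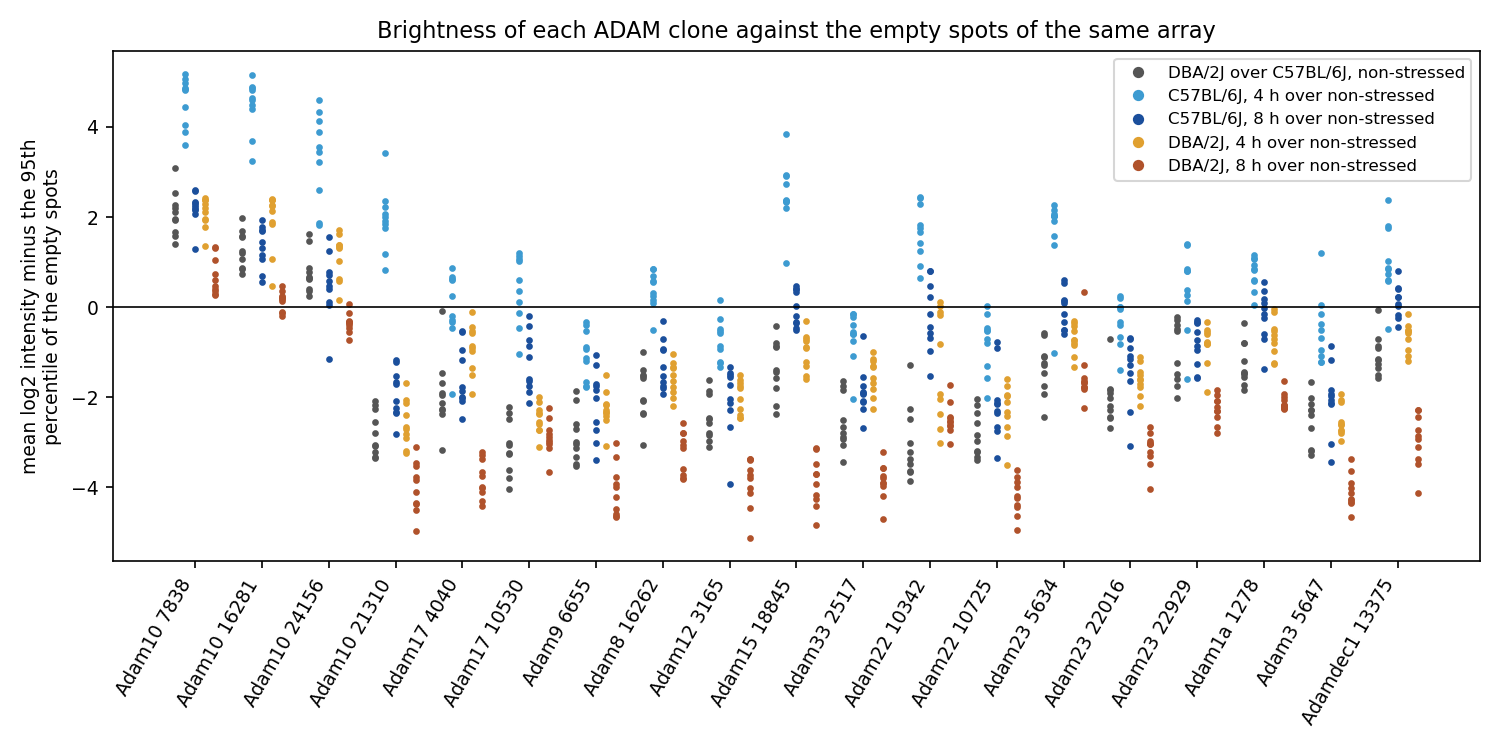
Each point is 1 of the 50 arrays. The y axis gives the mean log2 intensity of a clone over both dyes minus the 95th percentile of the empty spots of that array, and colours mark the 5 comparisons. Adam10 clones 7838, 16281 and 24156 lie above the line at 0 on 50, 47 and 40 arrays, and no other clone does so on more than 16.

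The share of bright clones differed between the comparisons. Between 33.6% and 70.6% of clones were bright on the arrays of C57BL/6J at 4 h, against 5.55% to 9.21% on those of DBA/2J at 8 h. The median Cy5 intensity of all clones was alike, at 211 to 295 and 192 to 276 units. The limit set by the empty spots was higher in DBA/2J at 8 h, on replicate 1 at 10.83 against 7.973 (log2). Counts of bright arrays therefore follow the empty spots as well as the clones. Over all clones, the mean log2 ratios of the 2 dye orientations correlated weakly, with r from -0.261 to 0.116 across the 5 comparisons, so a ratio that both orientations share is given as such below. Of the PVN peptides, somatostatin was bright on 31 arrays with 1 of its 2 clones, thyrotropin-releasing hormone on 25, vasopressin on 13 and oxytocin on 3. The clone of corticotropin-releasing hormone, a defining peptide of the PVN, was bright on 0 of 50 arrays.

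For reference, the mouse assembly GRCm38.p6 places the 212 bases just upstream of the first annotated base of Adam10 at chr9:70678732-70678943 on the plus strand. They are shown because Adam10 is the member whose RNA ratios were largest, and the arrays carry no measurement of this region. RefSeq gives them, 5′ to 3′, as follows, with GGGCGG (the core of a GC box) and CCAAT (the CCAAT box) in capitals on either strand:
Adam10 upstream region: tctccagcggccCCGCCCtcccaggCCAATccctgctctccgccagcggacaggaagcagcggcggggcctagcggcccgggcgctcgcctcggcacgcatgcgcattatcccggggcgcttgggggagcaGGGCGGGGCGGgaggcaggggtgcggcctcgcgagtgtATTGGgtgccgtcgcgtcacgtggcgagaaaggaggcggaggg
GGGCGG occurs 3 times, starting at base 13 on the reverse strand and at bases 132 and 137 on the forward strand, the last 2 sharing 1 base. CCAAT occurs 2 times, at base 26 and, reversed, at base 170. Of 32851 mouse promoter windows of the same length, 27.2% hold GGGCGG and 30.1% hold CCAAT at least once, and 5.38% and 7.9% hold them at least as often as Adam10 does.

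All ratios below are log2 values of DBA/2J over C57BL/6J or of stressed over non-stressed, with the direction read from the dyes in the labels. The fold changes printed by the study carry the opposite sign in every comparison, while its deposited processed values run the same way as the ratios here. Its PCR measurements in DBA/2J, of Gnai2 at 4 h and App at 8 h, also carry its printed sign. So does an in situ hybridisation signal it reports without showing the data. Neither uses the array dyes, and which reading is right is not settled here. If the labelled dyes were exchanged, every sign below would turn, and every higher would read lower. Adam10 was chosen by its measured ratios, since the study's lists of regulated genes name it for the non-stressed strains and for both strains at 8 h. The ratios in those comparisons are therefore described without a test, and the tests on Adam10 are those at 4 h. A clone was called changed when its ratio reached 1.414-fold (0.5 on the log2 scale) and its Benjamini-Hochberg adjusted p, over all 22824 clones, was under 0.05 in limma.

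In the non-stressed PVN, Adam10 RNA was higher in the DBA/2J pool than in the C57BL/6J pool on 3 of its 4 clones. Clone 7838 gave log2 ratios from 0.42 to 1.03 with a median of 0.75. Its mean was 0.75 ± 0.13 (SE, n = 10 arrays), or 1.68-fold, and the 2 dye orientations gave 0.68 and 0.82. Every array of this clone lay above 0, which held for 1.59% of all clones. Clone 24156 also lay above 0 on 10 of 10 arrays, from 0.08 to 1.38 around a median of 0.54, with a mean of 0.58 ± 0.16. Clone 16281 ran from -0.33 to 1.25 with a median of 0.71, and 8 of its 10 arrays lay above 0. Its mean of 0.59 ± 0.14 joined unequal orientations, 0.14 with DBA/2J in Cy5 and 1.04 with DBA/2J in Cy3. The dim clone 21310 spread from -1.35 to 1.13 around -0.29. Clones 7838 and 16281 met the call rule, as did 1.61% of all clones in this direction. The rule that chose Adam10 used this comparison, so nothing is read from that count. Clone 16281 no longer met the rule when array 2, 4, 5, 8, 9 or 10 was left out, and with the 5 arrays of either dye orientation alone no clone did.

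Markers of other cells also differed between the non-stressed pools. Of all clones, 3.63% were called in this comparison. Of 27 oligodendrocyte clones, 7 were called higher in DBA/2J and 2 lower, with ratios from -1.06 to 1.10. Of 26 astrocyte clones, 4 were called higher, and of 5 red blood cell clones 2 were. The 4 astrocyte clones were all of Glul, but its other clones lay between -0.09 and 0.13 and were not called. The part of these cells in the Adam10 ratio was not tested. In pooled tissue, more cells of a type and more RNA per cell cannot be told apart. None of the marker clones of neurons, the PVN peptides, microglia, endothelial cells or choroid plexus was called in this comparison. At 4 h 1 marker clone was called, thyrotropin-releasing hormone, at -0.75 in DBA/2J, and at 8 h none was in either strain. Of all clones, 0.289% and 0.153% were called at 4 h in C57BL/6J and DBA/2J, and 0.0832% and 0.158% at 8 h.

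At 4 h after swimming, Adam10 did not pass the test in either strain. In C57BL/6J clone 7838 ran from 0.03 to 0.32 with a median of 0.19, above 0 on all 10 arrays, as were 0.837% of all clones. Its mean was 0.18 ± 0.08 with a limma adjusted p of 0.392. Clones 16281 and 24156 gave means of 0.17 ± 0.08 and 0.16 ± 0.10, with limma adjusted p-values of 0.44 and 0.599. Clone 21310, bright on these arrays, gave 0.34 ± 0.14, with arrays from -0.30 to 1.11 and an adjusted p of 0.325 in limma. The 4 clones thus lay between 0.16 and 0.34, all below the fold of the call rule, and 0 of 4 were called against 0.289% of all clones. Unadjusted, clones 7838 and 21310 were under 0.05 in limma, as were 12.3% of all clones. The one-sample t-test of the methods was run with the same fold limit. It could not call any of the 4 clones whatever its p, so nothing is read from it here.

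In DBA/2J at 4 h the clones of Adam10 fell on both sides of 0. Clone 7838 ran from -0.58 to 0.45 with a median of -0.18, and its mean was -0.08 ± 0.13. The orientation means were -0.32 and 0.17, so the sign followed the dye. Clone 16281 gave -0.04 ± 0.15 and clone 24156 gave 0.37 ± 0.14, the latter from orientation means of -0.22 and 0.95. The lowest limma adjusted p among the 4 clones was 0.33, and 0 of 4 were called against 0.153% of all clones. Unadjusted, only clone 24156 was under 0.05 in limma. None of the 4 reached the fold limit, so the t-test with that limit again could not call any. The difference between the strains in the 4 h response was -0.26 ± 0.13 for clone 7838, -0.21 ± 0.16 for clone 16281 and 0.21 ± 0.16 for clone 24156 over 20 arrays. The limma adjusted p-values of these differences were 0.414, 0.638 and 0.64. None of the 4 clones was called in limma, and 0 were under 0.05 unadjusted, against 2.34% and 13.6% of all clones.

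At 8 h the 2 strains stood on opposite sides of 0. In C57BL/6J, clone 7838 ran from 0.90 to 1.65 with a median of 1.20, and its mean was 1.21 ± 0.12, or 2.31-fold higher than in the non-stressed pool. Clone 16281 ran from 0.41 to 1.87 with a median of 1.24 and a mean of 1.23 ± 0.13, or 2.35-fold. Both clones lay above 0 on 10 of 10 arrays in both dye orientations, as did 0.627% of all clones. Clone 24156 had a mean of 0.69 ± 0.18. Of its 10 arrays 9 were above 0, and they ran from -0.96 to 1.67 around a median of 0.51. Its orientation means were 0.14 and 1.24. Clones 7838 and 16281 met the call rule, against 0.0789% of all clones in this direction, a comparison the choice of Adam10 had used. With the 5 arrays that had the 8 h pool in Cy5 alone, neither did.

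In DBA/2J at 8 h the same 3 clones lay below 0 on every array, as did 0.990% of all clones. Clone 7838 ran from -0.98 to -0.26 with a median of -0.64 and a mean of -0.66 ± 0.09, or 1.58-fold lower than in the non-stressed DBA/2J pool. Clone 16281 ran from -1.10 to -0.01 with a median of -0.57 and a mean of -0.55 ± 0.10. Clone 24156 ran from -1.05 to -0.24 with a median of -0.42 and the same mean of -0.55 ± 0.10. Clone 7838 alone met the call rule, as did 0.0789% of all clones in this direction, again in a comparison the choice had used. Clone 24156 was bright on 1 of these 10 arrays, clone 16281 on 7 and clone 7838 on all. This call did not stand when any 1 of the 10 arrays was left out, when the clones called in this comparison fell from 36 to 1. Clone 21310 was not bright on any 8 h array of either strain and gave 0.14 ± 0.21 in C57BL/6J and -0.15 ± 0.21 in DBA/2J.

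**Figure D2:**
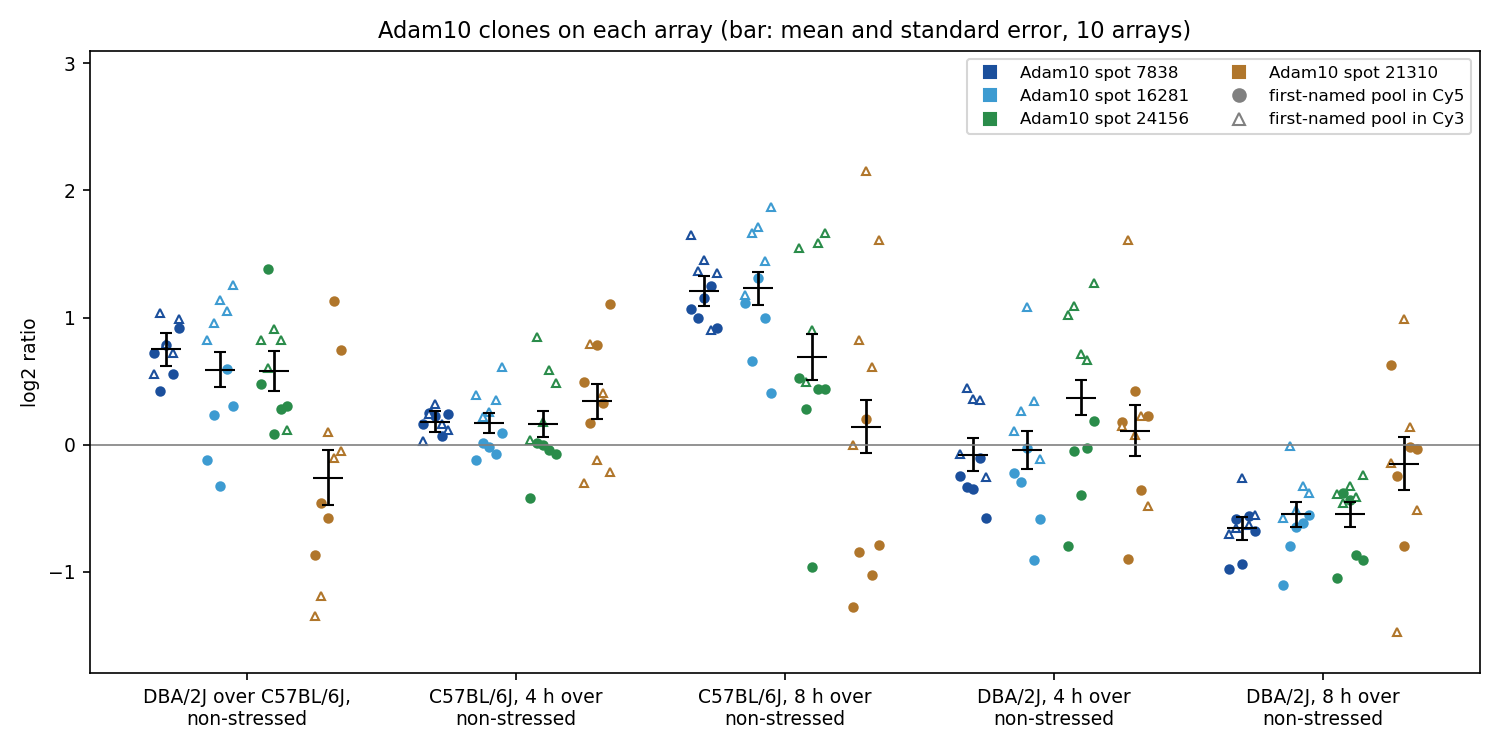
Log2 ratio of the 4 Adam10 clones on each array (points, filled with the first-named pool in Cy5 and open with it in Cy3), with the mean and SE of 10 arrays as black bars, for the 5 comparisons. At 8 h clones 7838 and 16281 lie above 0 on all arrays of C57BL/6J and below 0 on all arrays of DBA/2J, while clone 21310 scatters around 0.

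The arrays of C57BL/6J and DBA/2J at 8 h did not overlap for clones 7838 and 16281. Such a gap was seen for 63 of all 22824 clones, or 0.276%. The 8 h response of DBA/2J minus that of C57BL/6J was -1.87 ± 0.13 for clone 7838, or 3.64-fold, over 20 arrays. It was -1.79 ± 0.15 for clone 16281 and -1.24 ± 0.20 for clone 24156, and the 3 met the call rule, as did 0.394% of all clones in this direction. Between 4 h and 8 h the ratio of clone 7838 moved by 1.03 ± 0.12 in C57BL/6J and by -0.58 ± 0.14 in DBA/2J. Clone 16281 moved by 1.06 ± 0.14 and -0.52 ± 0.17, and clone 24156 by 0.53 ± 0.20 and -0.91 ± 0.15. The call rule was met by 2 clones in C57BL/6J (7838 and 16281), against 0.386% of all clones in that direction, and by 2 in DBA/2J (7838 and 24156), against 0.443%. These differences are built from the 8 h ratios by which Adam10 was chosen, so the calls are a description and nothing is read from them. In DBA/2J the call of clone 7838 was lost without any 1 of 18 of the 20 arrays, all but replicates 5 and 10 at 4 h. The 4 h and 8 h comparisons of a strain share its non-stressed pool.

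Scan day went largely with dye orientation. In C57BL/6J at 8 h the first day held 4 arrays, all 4 with the 8 h pool in Cy5, and the second 6, with 1. Taking off the dye effect thus also takes off much of any day difference, and the averages below cannot exclude one. With the dye effect taken off, clone 7838 averaged 1.25 and 1.18 on the 2 scan days of C57BL/6J at 8 h. It averaged -0.74, -0.65 and -0.58 on the 3 days of DBA/2J at 8 h, and 0.74 and 0.77 on the 2 days of the non-stressed comparison. At 4 h the arrays of C57BL/6J were scanned on 1 day, and those of DBA/2J averaged -0.05 and -0.19 on their 2 days.

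Because the comparisons share pools, the level of Adam10 in each of the 6 pools can be written relative to non-stressed C57BL/6J by adding the log2 ratios. On clone 7838 the order was C57BL/6J at 8 h (1.21 ± 0.12), non-stressed DBA/2J (0.75 ± 0.13), DBA/2J at 4 h (0.67 ± 0.18), C57BL/6J at 4 h (0.18 ± 0.08), DBA/2J at 8 h (0.09 ± 0.16) and non-stressed C57BL/6J at 0. Non-stressed DBA/2J and DBA/2J at 4 h did not differ beyond their SE. Nor did DBA/2J at 8 h differ from either of its neighbours, C57BL/6J at 4 h and non-stressed C57BL/6J. Clone 16281 gave the same order of pools, with 1.23 ± 0.13, 0.59 ± 0.14, 0.55 ± 0.20, 0.17 ± 0.08 and 0.04 ± 0.17. On clone 24156 the highest pool was DBA/2J at 4 h, at 0.95 ± 0.21, ahead of C57BL/6J at 8 h at 0.69 ± 0.18, a gap within the joint error. With the labelled dyes exchanged these orders would run the other way, and C57BL/6J at 8 h would be the lowest pool on clones 7838 and 16281. As read here, the strain that was higher before the stress was the lower one at 8 h. By these sums DBA/2J stood at -1.12 ± 0.20 against C57BL/6J at 8 h on clone 7838, at -1.20 ± 0.21 on clone 16281 and at -0.66 ± 0.26 on clone 24156. At 4 h the same 3 sums were 0.49 ± 0.20, 0.38 ± 0.22 and 0.79 ± 0.23.

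**Figure D3:**
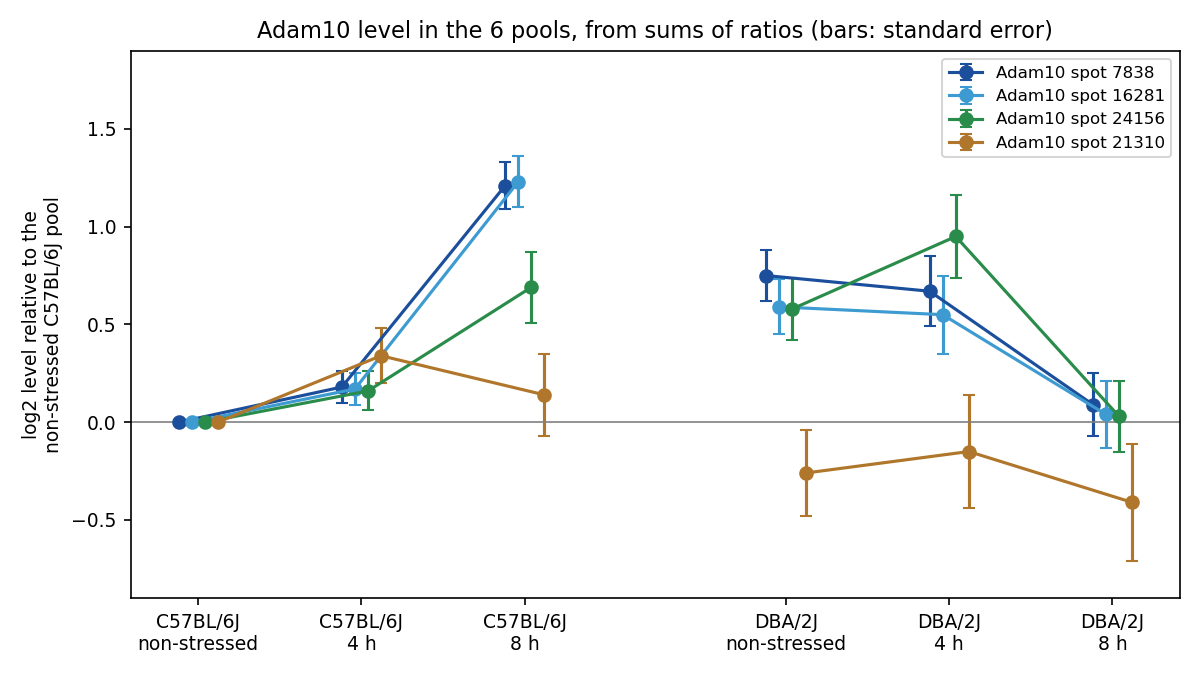
Level of each Adam10 clone in the 6 pools as log2 relative to the non-stressed C57BL/6J pool (y axis), summed from the measured ratios, with bars for the SE over arrays. Clones 7838 and 16281 rise to 1.21 and 1.23 in C57BL/6J at 8 h, and clones 7838, 16281 and 24156 come down to between 0.03 and 0.09 in DBA/2J at 8 h, where clone 24156 was above the empty spots on 1 of 10 arrays.

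Clones 7838, 16281 and 24156 of Adam10 ran alike across the comparisons. Across the 50 arrays, which share pools and dyes, the log2 ratios of clones 7838 and 16281 correlated with r = 0.901, and those of clone 7838 with 24156 at 0.64. Once each comparison's mean was taken off, these values were 0.177 and -0.286, so the likeness lay between the comparisons and not among the arrays within one. Clone 21310 correlated with the other 3 at -0.105 to 0.14. These are descriptions over arrays and carry no test.

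Among the 10195 other clones with a full gene name, those most like Adam10 clone 7838 over the 50 arrays were both clones of p23, the Hsp90 co-chaperone printed as telomerase binding protein (r = 0.889 and 0.877), insulin induced gene 1, a brake on sterol synthesis (0.88), synaptosomal-associated protein (0.874) and N-myc downstream regulated 4 (0.824). The p23 clone 5449 gave log2 ratios of 0.64 in the non-stressed strains, 1.60 in C57BL/6J at 8 h and -0.88 in DBA/2J at 8 h, against 0.03 and 0.29 at 4 h. Insulin induced gene 1 on clone 2344 gave 0.94, 1.34 and -0.37 in the same order. Clone 16281 listed p23 (0.86 and 0.859), synaptosomal-associated protein (0.834) and insulin induced gene 1 (0.828 and 0.799). For clone 24156 the first 5 were p23 (0.697 and 0.693), kinesin family member 5C (0.69), N-myc downstream regulated 4 (0.681) and synaptosomal-associated protein (0.659). The dim clone 21310 had no clone above 0.595, that of TPA regulated locus, and its first 5 held none of these genes.

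No clone of another ADAM gene was called in any of the 5 comparisons or the 4 differences between them in limma. Of all clones, 0.0832% to 3.63% were called in these fits, so 0 of 15 lies close to the share of all clones. At an unadjusted p under 0.05, 3 of 15 clones passed in the non-stressed strains, 2 and 1 in C57BL/6J at 4 h and 8 h, and 0 and 2 in DBA/2J. In the strain differences 0 passed at 4 h and 3 at 8 h, and between 8 h and 4 h 1 passed in C57BL/6J and 2 in DBA/2J. For the 5 comparisons the shares of all clones under that limit were 15.4%, 12.3%, 9.27%, 10.6% and 12% in the order just given, and for the 4 differences they were 13.6%, 10.4%, 10.7% and 12.1%. The one-sample t-test of the methods, run on the 5 comparisons with the same fold limit, called 1 clone in C57BL/6J at 4 h and 2 in DBA/2J at 8 h without adjustment, where it called 1.95% and 2.46% of all clones, and 0 after adjustment. Ratios of the 15 clones ran from -0.48 to 0.37 in the non-stressed strains, from -0.58 to 0.30 and -0.38 to 0.44 in C57BL/6J at 4 h and 8 h, and from -0.42 to 0.21 and -0.50 to 0.54 in DBA/2J. Their medians lay between -0.09 and 0.11 and those of all clones between -0.01 and 0.01. The SE of these clones ran from 0.10 to 0.33, and at its upper end a ratio at the fold limit could not have been called. Most of their spots did not pass the brightness limit set by the empty spots.

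Of the shedding proteases, Adam17 gave 0.44 ± 0.23 and 0.32 ± 0.17 on its 2 clones in C57BL/6J at 8 h, with limma adjusted p-values of 0.586 and 0.598. In DBA/2J at 8 h clone 4040 gave 0.11 ± 0.28 and clone 10530 gave -0.35 ± 0.19, so the clones stood on opposite sides of 0. Adam9 (meltrin gamma), Adam8, which is known from immune cells, and Adam15 (metargidin) stayed within 0.42 of 0 in every comparison. Adam15 was the brighter of these, above the empty spots on all 10 arrays of C57BL/6J at 4 h, where it gave -0.14 ± 0.10. Adam12 (meltrin alpha), known from muscle and bone, gave -0.58 ± 0.16 in C57BL/6J at 4 h, with arrays from -1.50 to 0.32 and a limma adjusted p of 0.171. It was bright on 1 of those arrays. Adam33 gave -0.43 ± 0.15 in the non-stressed strains, below 0 on 10 of 10 arrays (1.78% of all clones were), with an adjusted p of 0.141 in limma and no bright array.

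Of the inactive members, the 3 clones of Adam23 did not move together. In DBA/2J at 8 h clone 5634 ran from -0.03 to 1.27 around a median of 0.48, with a mean of 0.54 ± 0.12 and a limma adjusted p of 0.105. Clone 22929 ran the other way, from -1.27 to 0.33 around -0.58, with a mean of -0.50 ± 0.13 and an adjusted p of 0.15 in limma. Clone 22016 gave -0.18 ± 0.22. The strain difference of the 8 h response was 0.85 ± 0.22 for clone 5634 and -0.72 ± 0.29 for clone 22929, with limma adjusted p-values of 0.0908 and 0.374. The first of these was the lowest adjusted p of any non-Adam10 clone. Adam22, the other LGI1 receptor, stayed between -0.28 and 0.30 on both clones in the 5 comparisons. Adam1a (fertilin alpha) and Adam3 (cyritestin), best known from sperm, ran from -0.40 to 0.12 and from -0.44 to 0.30. Adamdec1 (decysin), an ADAM-like gene of dendritic cells and macrophages, ran from -0.41 to 0.15.

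**Figure D4:**
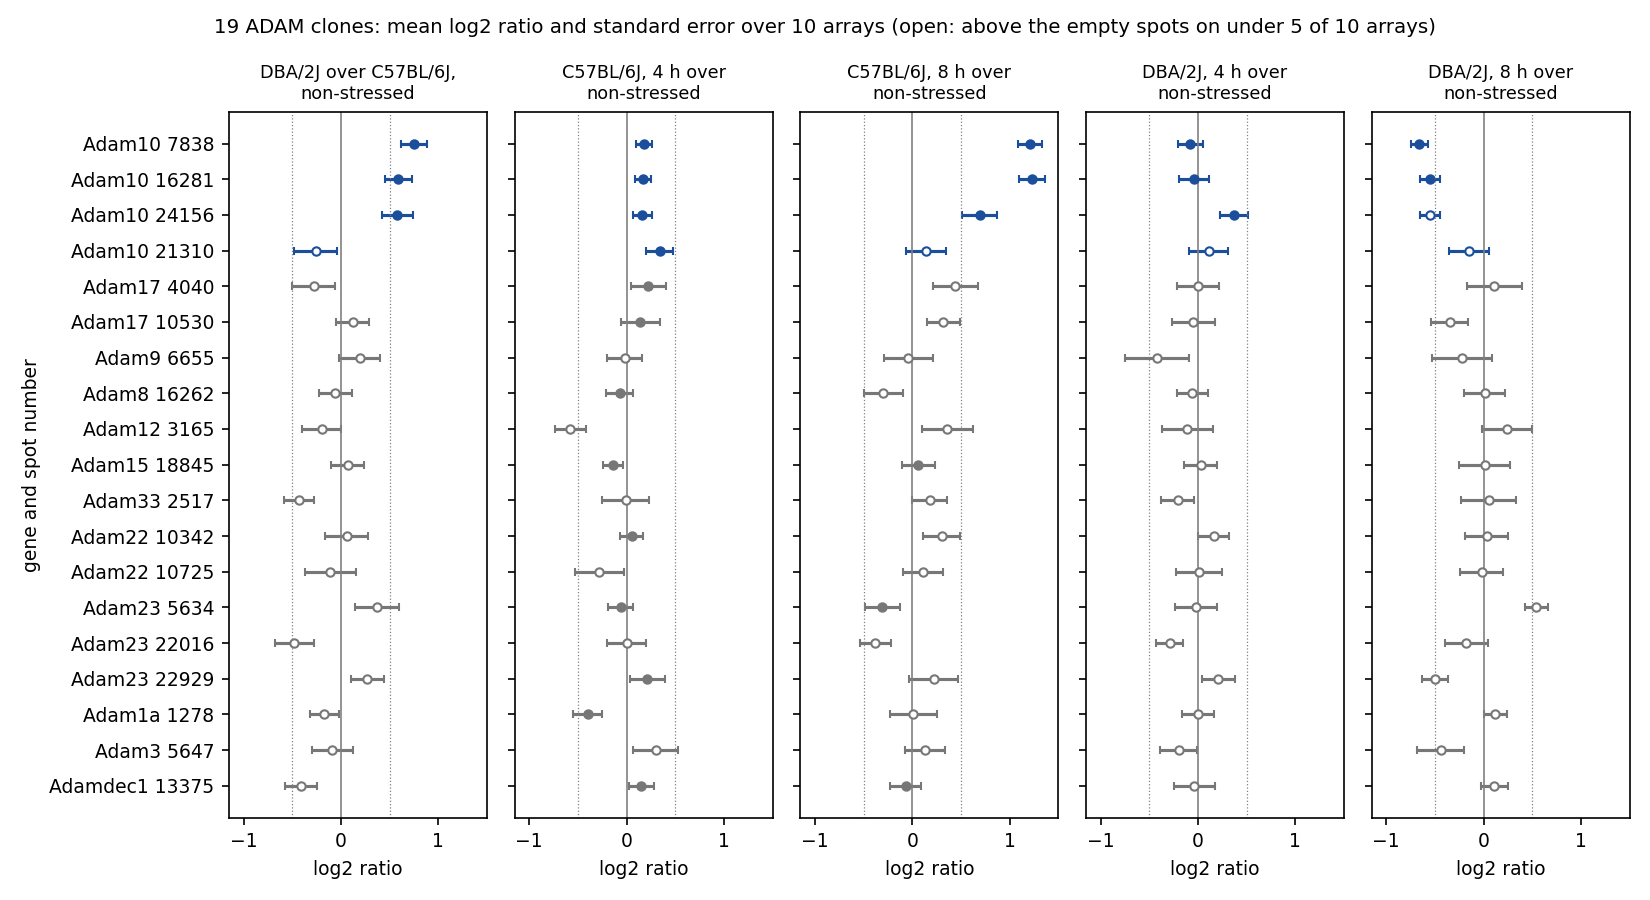
Mean log2 ratio and SE over 10 arrays (x axis) of the 19 ADAM clones (rows, gene and spot number) in the 5 comparisons, with dotted lines at the fold limit of 0.5 either way. Open points were above the empty spots on under 5 of 10 arrays, and Adam10 is in blue. Of the 4 Adam10 clones, 3 stand past the limit in the non-stressed strains and in both strains at 8 h, in opposite directions at 8 h. Of the others, Adam12 does in C57BL/6J at 4 h and Adam23 clones 5634 and 22929 in DBA/2J at 8 h, and none of these was called.

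Lists of genes around the ADAM proteases held 86 of 162 listed genes on the array, on 138 clones. Beta- and gamma-secretases cut the amyloid precursor protein in competition with ADAM10 or after it. The 4 clones of their genes gave 0 calls in the 9 fits, against 0.0832% to 3.63% of all clones. Of 66 clones of known substrates of ADAM10 or ADAM17, 3 were called higher in non-stressed DBA/2J, a share of 4.55% against 3.63% of all clones in either direction. They were N-cadherin (Cdh2, 0.69 ± 0.16), the Notch ligand Jag1 (0.67 ± 0.16) and the chemokine Cx3cl1 (0.66 ± 0.17), with limma adjusted p-values of 0.027, 0.0306 and 0.0451. The other clone of Cdh2 and the other 2 of Cx3cl1 were not called. At 8 h no substrate clone was called in either strain, against 0.0832% and 0.158% of all clones, and the list's medians were -0.01 and -0.03 beside -0.01 and 0.00 for all clones. At 4 h in C57BL/6J 1 was called, or 1.52% against 0.289% of all clones. It was the receptor phosphatase Ptprz1, at -0.53 ± 0.09 with a limma adjusted p of 0.0389. Its 8 h minus 4 h difference in C57BL/6J was 1.05 ± 0.16 (adjusted p = 0.00354 in limma), where 0.499% of all clones were called.

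App, the best-known substrate of ADAM10 in neurons, had 5 clones. None was called in any comparison, against 0.0832% to 3.63% of all clones. In DBA/2J at 8 h clone 3600 stood at -0.49 ± 0.08, just inside the fold limit, with a limma adjusted p of 0.0473, and clone 6204 at -0.68 ± 0.12 with an adjusted p of 0.0565. The other 3 clones gave -0.43 ± 0.09, -0.24 ± 0.09 and 0.17 ± 0.27 there, so 4 of the 5 lay below 0. The study's PCR of App in DBA/2J at 8 h went the other way, upward. In C57BL/6J at 8 h clones 3600 and 6204 gave -0.42 ± 0.11 and -0.07 ± 0.23. The other 3 clones, in the same order as before, gave -0.30 ± 0.13, -0.12 ± 0.12 and 0.16 ± 0.19.

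Of 34 clones of genes that mature, carry or inhibit ADAM proteases, 3 were called in the non-stressed strains, or 8.82% against 3.63% of all clones. They were 2 of the 4 clones of Timp2, an inhibitor of metalloproteases (0.68 ± 0.16 and 0.65 ± 0.15), and Rarb, a retinoic acid receptor, at -0.64 ± 0.14. No clone of this list was called at 4 h or 8 h in either strain, against 0.0832% to 0.289% of all clones. In the strain difference of the 4 h response 3 were called against 2.34% of all clones. These were Sirt1, a deacetylase, at 0.85 ± 0.21, another clone of Timp2 at -0.77 ± 0.14, and the tetraspanin Cd81 at -0.66 ± 0.13. At 8 h the strain difference held 1, the fourth clone of Timp2, at -0.66 ± 0.12, against 0.600% of all clones. Between 8 h and 4 h in DBA/2J, Timp2 clone 6984 differed by 0.65 ± 0.15 and Cd81 by 0.57 ± 0.14, where 1.00% of all clones were called. The 4 clones of Timp2 were therefore called in different comparisons and never all together.

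Partners of the inactive ADAM proteins, 11 clones of 8 genes, gave 0 calls in the 5 comparisons, against 0.0832% to 3.63% of all clones. Lgi1, the secreted ligand of ADAM22 and ADAM23, was called in the strain difference of the 4 h response, at 0.83 ± 0.22 with a limma adjusted p of 0.0489, where 2.34% of all clones were called. The potassium channel subunit Kcnab2 was called between 8 h and 4 h in DBA/2J, at -0.64 ± 0.15 with a limma adjusted p of 0.0452, where 1.00% of all clones were called. The related ADAMTS and matrix metalloproteases, 25 clones of 19 genes, gave 0 calls in the 9 fits, against 0.0832% to 3.63% of all clones. Their median ratios in the 5 comparisons lay between -0.04 and 0.08.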

How the data were processed

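PVN RNA pools of 2 strains were compared on 50 cDNA arrays of 24192 spots, 1368 of them controls. Per the file headers and the methods, the authors scanned each array at fixed laser power and gain and deposited the intensity of both dyes and its local background for each spot, neither background-subtracted nor normalised. The authors also deposited a value table of processed log2 ratios for 19047 spots, whose scale matched log2 and whose direction matched the labelled dyes. It was used as an alternative, and it holds 17 of the 19 clones, 1 of them (Adam10 clone 21310) without values for DBA/2J at 4 h. The dye of each channel was read from the image named in the file header, since 4 arrays list Cy3 first.

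Here, background was corrected with normexp (offset 50), ratios were normalised by loess within each array with control spots at weight 0, and limma 3.58.1 (R 4.3.3) fitted each comparison over its 10 arrays with a dye term, on all 22824 clones. Differences between comparisons used 20 arrays. p-values were adjusted by Benjamini-Hochberg. The fitting was tested on simulated data. Depth is not defined for arrays, and their number limits the precision. Alternatives were the background correction, normalisation, dim-spot filter, dye term, dye orientation, scan day, test and single arrays left out.

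Named were every ADAM clone, up to 4 called clones per gene list and comparison with the largest ratios, and the 5 clones most like each Adam10 clone, by Pearson correlation after the dye effect was taken off. The rule asked for the Adam10 clones of the published lists only. The files give no accession, so it was applied to all 4 clones. Symbols were assigned to printed names by hand, and old names may be missed. The members and lists were chosen with earlier results of these data known. The number of calls in each comparison refers to clones and not to genes.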

Additional observations from a re-analysis of the deposited data

Results flagged for a closer look

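For Adam10 clones 7838 and 16281, every array of C57BL/6J at 8 h lay above 0 and every array of DBA/2J at 8 h lay below 0. In the authors' processed values 1 DBA/2J array of clone 16281 lay above 0, at 0.08. The strain difference of the 8 h response was -1.87 and -1.79 on the log2 scale. Both clones met the call rule, but Adam10 was chosen from these comparisons, so this is a description and the difference was not tested independently of that choice.

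Single arrays lay far from the other 9 of their comparison in 8 of 95 sets of 10 arrays, where chance gives about 1 in 20. Adam10 clone 24156 read -0.96 on replicate 3 of C57BL/6J at 8 h, while the next lowest array read 0.28. The dim Adam10 clone 21310 read 1.61 on replicate 7 of DBA/2J at 4 h, with 0.42 as the next highest. Adam17 clone 10530 read -2.25 on replicate 10 of DBA/2J at 4 h. Adam23 clone 22929 read 1.72 on replicate 8 of C57BL/6J at 4 h. Adam3 read -1.91 on replicate 10 of the non-stressed strains. Adam33 read 1.88 on replicate 5 of C57BL/6J at 8 h, -1.73 on replicate 7 of DBA/2J at 4 h and -1.21 on replicate 7 of the non-stressed strains. Each of these clones, apart from Adam10 clone 24156, passed the brightness limit set by the empty spots on at most 10 of 50 arrays.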

How the results depend on the processing

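No called ADAM clone changed direction under any alternative. In the non-stressed strains, where 2 ADAM clones were called, there were 4 with median centring, 3 with print-tip loess, dim clones left out, the authors' processed values, scan day as a block, the unadjusted t-test, all 50 arrays in one fit or the fold alone, 1 without a dye term, 0 with either dye orientation alone or the orientations averaged, 1 without the arrays listing Cy3 first (a choice made after seeing the data), and 1 to 2 without 1 array. In C57BL/6J at 4 h (0 called) the unadjusted t-test and the fold alone gave 1. In C57BL/6J at 8 h (2) there were 3 with dim clones left out, the unadjusted t-test, all 50 arrays in one fit or the fold alone, 0 with the stressed pool in Cy5 alone or orientations averaged, and 1 without the arrays listing Cy3 first. In DBA/2J at 8 h (1) there were 3 with median centring, 2 with dim clones left out, 0 with either orientation alone, orientations averaged or without the arrays listing Cy3 first, 4 with scan day as a block, 5 and 3 by t-test without and with adjustment, 3 with all 50 arrays in one fit, 5 by fold alone, and 0 without any 1 array. For the strain difference at 8 h (3), there was 1 with the stressed pool in Cy5 alone and 7 by fold alone. For 8 h against 4 h in C57BL/6J (2), either orientation alone gave 0 and the fold alone 4. In DBA/2J (2), there were 3 with print-tip loess, dim clones left out, the authors' processed values or all 50 arrays in one fit, 1 without background subtraction or without the arrays listing Cy3 first, 0 without a dye term, with either orientation alone, or with the replicate block, 5 by fold alone, and 1 to 2 without 1 array. DBA/2J at 4 h and the strain difference at 4 h stayed at 0 throughout. The causes were not tested, and an orientation alone has 5 arrays in place of 10. For the 4 differences the t-test, the averaged orientations and the scan day block were not run, and C57BL/6J at 4 h had 1 scan day.

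Of other ADAM clones, Adam33 was called in the non-stressed strains with median centring (-0.56), Adam23 clone 5634 in DBA/2J at 8 h with scan day as a block (0.53), and the same clone in the strain difference at 8 h without replicate 9 of C57BL/6J at 8 h (0.95). Same-numbered arrays did not deviate together (r from -0.0163 to 0.0214), so the numbers do not pair them. With the number as a replicate block, calls fell from 3 to 2 in the strain difference at 8 h (clone 24156 was lost) and from 2 to 0 in 8 h against 4 h in DBA/2J, and stayed at 2 in C57BL/6J and at 0 in the strain difference at 4 h.

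The ranges over all clones leave out the fold alone, the adjusted p alone and the unadjusted t-test. That t-test called 1533 clones in the non-stressed strains, 445 and 549 in C57BL/6J at 4 h and 8 h, and 711 and 561 in DBA/2J. Under the other alternatives the calls ran from 35 to 1234 around 828 in the non-stressed strains. They ran from 0 to 157 around 66 and 1 to 197 around 19 in C57BL/6J at 4 h and 8 h, and from 0 to 355 around 35 and 0 to 129 around 36 in DBA/2J. For the strain differences they ran from 0 to 959 around 535 at 4 h and 5 to 216 around 137 at 8 h, and for 8 h against 4 h from 1 to 314 around 114 in C57BL/6J and 0 to 370 around 229 in DBA/2J. Dim spots limit the ADAM genes other than Adam10.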
